A study of Mus musculus with 17 samples.

Results

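Macrophages grown from the bone marrow of Smad3-knockout mice were compared with those of wild-type mice in the absence of added TGF-β1, across all genes. The comparison holds 10 of the 17 RNA sequencing libraries of the series, chosen by their titles: 5 labelled Smad3 knockout and 5 labelled wild type, none of them titled as treated. Both groups carry the strain label C57BL/6J and a control label for treatment, and in both, marrow cells had become macrophages over 7 days in M-CSF (macrophage colony-stimulating factor) at 50 ng/ml. The other 7 libraries, 3 knockout and 4 wild type, had received TGF-β1 (5 ng/ml, 5 days) and are used below only beside the genes of this comparison. Whether the controls spent those further days in culture, the animals' ages, the deleted part of Smad3 and the number of animals or cultures behind a group are not given in the sources used here. Whether a library is 1 cell or many is also not settled by the labels. The series' design mentions flow sorting of F4/80-expressing cells by smooth muscle actin after TGF-β1, but no label assigns a library to a sorted fraction. All p-values thus describe the variation among these libraries, technical variation included, and not necessarily that among animals.

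Smad3 is a transcription factor that is phosphorylated by the TGF-β and activin receptors, joins Smad4 and moves to the nucleus, where it switches target genes on or off. In macrophages this pathway is known for restraining inflammatory genes and for maintaining the gene programme of microglia, and the study asked about its part in the change of macrophages into matrix-producing myofibroblasts. The comparison without added ligand addresses which genes differ between the genotypes before that change is induced.

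The values are TPM, a measure of transcript abundance scaled for length to a common total per library, so read depth is unknown. A difference below is the knockout mean of log2(TPM + 1) less the wild-type mean, with its standard error (SE), from 1 limma fit over the 17 libraries. Called genes are those whose p, adjusted by Benjamini and Hochberg's method over the 12158 genes tested, was under 0.05. Adding 1 before taking logarithms understates the change of low genes.

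Smad3 itself was at 0, 0.27, 1.93, 0 and 0 TPM in knockout libraries 1 to 5, and at 0, 0.01, 0, 15.38 and 11.54 TPM in wild-type libraries 1 to 5. It was thus at or near 0 in 3 of the 5 wild-type libraries, and the groups overlapped. The difference was -1.16 (two-sided exact permutation p = 0.365, where the smallest p that 5 against 5 libraries can give is 0.00794). With TGF-β1 the order was the other way round, at 6.18, 0.01 and 22.26 TPM in knockout and at 0 in all 4 wild-type libraries. The difference there was 2.47 (limma unadjusted p = 0.0329, adjusted p = 0.904). The difference between the effects was -3.63 (limma unadjusted p = 0.0173, adjusted p = 0.997). In the controls the transcript therefore does not separate the genotypes. Values per gene cannot show whether the deleted part was transcribed, and every direction below rests on the labels.

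The cells carried macrophage transcripts in both groups. Of the 31 macrophage identity genes, all but the scavenger receptor gene Cd163 averaged above 1 TPM in both groups. Cd163 averaged 0.422 TPM in knockout and 0.082 TPM in wild type. Cd68, a lysosomal glycoprotein of macrophages, was at 1625, 4233, 2905, 2779 and 3907 TPM in knockout libraries and at 2821, 3276, 3646, 2999 and 1435 TPM in wild-type libraries. Adgre1, which encodes the macrophage surface marker F4/80, was at 119.9, 161, 88.2, 203 and 328 TPM in knockout libraries and at 326, 25.4, 98.7, 112 and 103 TPM in wild-type libraries. Itgam, the integrin alpha chain CD11b, was at 3.28 to 82.4 TPM in knockout libraries and at 27.6 to 141 TPM in wild-type libraries. The groups overlapped for all 3 of these markers. Eif2s3y, a gene of the Y chromosome, was at 27.3 to 121 TPM in knockout and 44.5 to 152 TPM in wild-type libraries, and Xist, the RNA of the inactive X, was at no more than 0.01 TPM in any of the 10. Neither of these sex-linked genes, chosen after their values were seen, separated the groups.

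Libraries of the knockout group held 9150 ± 837 genes at TPM 1 or more, against 8379 ± 761 in wild type (SD, n = 5 each, exact permutation p = 0.175, adjusted 0.575 over 5 measures). Among genes with a mean of 10 to 50 TPM elsewhere in their group, 7.50 ± 4.04% were listed at 0 in knockout libraries and 10.1 ± 2.20% in wild-type libraries (exact permutation p = 0.230, adjusted 0.575), and 1 knockout and 3 wild-type libraries exceeded 10%. Mitochondrially encoded genes held 5.07 ± 1.39% of the TPM in knockout and 5.70 ± 1.05% in wild type, and cytosolic ribosomal protein genes held 3.57 ± 0.790% in knockout and 3.39 ± 0.314% in wild type. The correlation of log2(TPM + 1) across the tested genes had a median of 0.72 within the knockout group, 0.66 within the wild-type group and 0.68 between them, so libraries of different genotype were about as alike as libraries of the same one. These are correlations across genes, which are not independent replicates.

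Few genes passed the test. limma called 18 of 12158 genes (0.148%), 10 higher (0.0823%) and 8 lower (0.0658%) in knockout. At an unadjusted p under 0.05 there were 708 (5.82%), 474 higher (3.9%) and 234 lower (1.92%). For 129 genes (1.06%) every knockout library lay on 1 side of every wild-type library, above for 83 (0.683%) and below for 46 (0.378%). For a gene unrelated to genotype, 5 against 5 libraries separate completely with a probability of at most 0.00794. The calls were unevenly spread over kinds of gene. Annotated pseudogenes, copies of genes that are mostly without a product of their own, made up 11 of the 18 calls, or 2.08% of the 528 pseudogenes tested, while 5 of 10233 protein-coding genes were called (0.0489%) and the remaining 2 were IDs for which no name was found. Npy, Rps2, Rpl29 and Rpl3 were among the coding genes called. The median difference over all tested genes was 0.11, and it was 0.19 with 0.1 in place of 1 added before the logarithm, 0.02 with 10 added, and -0.04 when a covariate for how many genes each library detected was included.

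**Figure D1:**
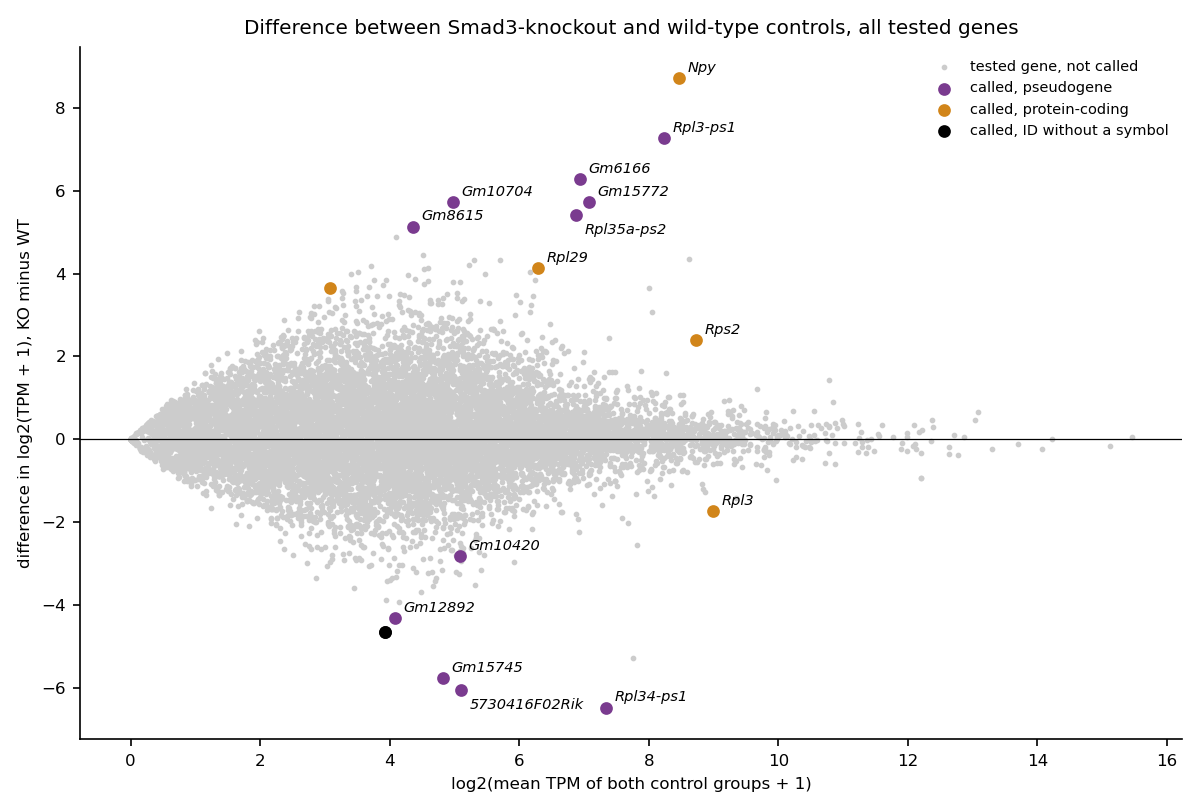
Difference in log2(TPM + 1), knockout (KO) minus wild-type (WT) controls, against the log2 of the mean TPM of both groups plus 1, with 1 grey point per tested gene and coloured points for the 18 called genes. Npy lies at a difference of 8.71 and Rpl34-ps1 at -6.48; 11 of the 18 called genes are pseudogenes.

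Npy showed the largest difference of all called genes. Npy (ENSMUSG00000029819, chromosome 6) encodes neuropeptide Y, a peptide transmitter of neurons and sympathetic nerves that is known for stimulating feeding and narrowing blood vessels. It was at 316, 1285, 173, 520.0 and 1238 TPM in knockout libraries 1 to 5, and at 0.41, 0.31, 0.28, 0.39 and 0.09 TPM in wild-type libraries 1 to 5. All wild-type libraries were under 1 TPM and all knockout libraries far above that, though the knockout libraries themselves differed widely. The difference was 8.71 ± 0.62 (SE, limma adjusted p = 1.09e-07). With TGF-β1, in libraries that share none with the controls, Npy was at 748, 1343 and 637 TPM in knockout and at 0.28, 0.29, 0.20 and 0.99 TPM in wild type, a difference of 9.26 (limma adjusted p = 1.07e-06). It was called under all 26 alternative settings run, with differences of 5.74 to 10.49. Among the pseudogenes with TPM above 0 in at least 1 library, none was paired with Npy at 85% identity.

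Of the coding calls, 3 were genes of the ribosome, the particle that makes protein, and each has a near-identical pseudogene whose difference had the opposite sign. Rpl3 (ENSMUSG00000060036, chromosome 15) and Rpl3-ps1 (chromosome X) are the clearest case. Rpl3 was at 243, 294, 249.5, 213 and 167 TPM in knockout libraries, and at 731, 675, 996, 541 and 973 TPM in wild-type libraries (difference -1.73 ± 0.29 SE, limma adjusted p = 0.00534). Rpl3-ps1 was at 720.3, 788, 609, 567 and 306 TPM in knockout libraries, and at 6.63, 3.62, 19.2, 0 and 0 TPM in wild-type libraries (7.26 ± 0.82, limma adjusted p = 5.95e-05). Neither gene's groups overlapped, in opposite directions. The pseudogene's share of the sum of both was 64.7% to 74.8% in knockout and 0% to 1.89% in wild type. The sum itself was 831 ± 230 TPM in knockout and 789 ± 201 TPM in wild type (SD, n = 5 each), and its groups overlapped.

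The sequences of such pairs are set out here because their coding parts differ in few bases. RSEM, the program that made the values, has to divide reads that match more than 1 transcript. The part of that division in these values was not tested, and only the coding parts were aligned. In the GENCODE vM21 annotation of GRCm38, a later build than the mm9 of the deposited values, the aligned coding part of Rpl3 had 1209 bases, of which 2 differed in Rpl3-ps1. Rpl26 and Gm15772 differed in 2 of 435 aligned bases, Rpl34 and Rpl34-ps1 in 2 of 353, Rpl29 and Gm13841 in 3 of 480, Rpl35a and Rpl35a-ps2 in 1 of 330, Rps2 and Rps2-ps13 in 7 of 879, and Rtraf and Gm10704 in 10 of 730. For each pair, 29 bases around 1 differing base are printed below, read 5′ to 3′ on the transcript strand, with the base that differs in capitals.
Rpl3 (chromosome 15): caccctgcccgtgtTgccttctctgtggc
Rpl3-ps1 (chromosome X): caccctgcccgtgtCgccttctctgtggc
Rpl26 (chromosome 11): ggcacaaccgtccaTgtgggcatccaccc
Gm15772 (chromosome 5): ggcacaaccgtccaCgtgggcatccaccc
Rpl34 (chromosome 3): atcgttgtgaaagtCttgaaggcacaagc
Rpl34-ps1 (chromosome 6): atcgttgtgaaagtGttgaaggcacaagc
Rpl29 (chromosome 9): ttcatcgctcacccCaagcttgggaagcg
Gm13841 (chromosome 5): ttcatcgctcacccTaagcttgggaagcg
Rpl35a (chromosome 16): gcttatgtgtataaGgcaaaaaacaatac
Rpl35a-ps2 (chromosome 1): gcttatgtgtataaAgcaaaaaacaatac
Rps2 (chromosome 17): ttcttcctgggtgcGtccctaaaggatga
Rps2-ps13 (chromosome X): ttcttcctgggtgcAtccctaaaggatga
Rtraf (chromosome 14): gataacgctgaaaaGtacaaggacttagt
Gm10704 (chromosome 3): gataacgctgaaaaAtacaaggacttagt

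Rps2 (ENSMUSG00000044533), of the small ribosomal subunit, ran opposite to Rpl3. It was at 936, 605, 793, 738 and 478 TPM in knockout libraries, and at 108.5, 107.9, 101, 144 and 225 TPM in wild-type libraries (difference 2.39 ± 0.28 SE, limma adjusted p = 9.99e-05). Its groups did not overlap. Rps2-ps13 was at 294 to 1086 TPM in knockout and at 1074 to 1696 TPM in wild type (-0.98, limma adjusted p = 0.543), and its share of the pair's sum was 32.7% to 57.4% in knockout, against 88.3% to 92.1% in wild type. The sum of Rps2 and Rps2-ps13 was 1426 ± 497 TPM in knockout and 1417 ± 294 TPM in wild type. A further pseudogene of Rps2, Gm10420, was called lower, at 2.62 to 14.1 TPM in knockout and 49.0 to 70.7 TPM in wild type (-2.82 ± 0.57, limma adjusted p = 0.0494). That call was kept in 4 of 23 alternative settings.

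Rpl29 (ENSMUSG00000048758), of the large subunit, was at 281, 185, 132, 101 and 42.1 TPM in knockout libraries, and at 5.76, 8.29, 6.04, 6.71 and 4.42 TPM in wild-type libraries (difference 4.13 ± 0.61 SE, limma adjusted p = 0.0013). All knockout libraries lay above all wild-type libraries. Its pseudogene Gm13841 was at 136.6 to 351 TPM in knockout and at 299 to 428 TPM in wild type, and took 47.1% to 76.4% of the pair's sum in knockout, against 97.8% to 98.7% in wild type. The sum was 388 ± 162 TPM in knockout and 366 ± 49.8 TPM in wild type.

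Rpl34 and Rpl26, of the large subunit, belonged to pairs in which the pseudogene was called. Rpl34-ps1 was at 3.99, 2.98, 3.90, 3.43 and 0.27 TPM in knockout libraries, and at 246, 345, 267, 405 and 331 TPM in wild-type libraries (difference -6.48 ± 0.55 SE, limma adjusted p = 1.33e-06). Its groups were far apart, and its share of the sum with Rpl34 was 0.166% to 0.694% in knockout and 51.5% to 63.6% in wild type. Gm15772, the copy of Rpl26, was at 345, 252, 275, 270.0 and 165 TPM in knockout libraries, and at 1.97, 16.3, 5.34, 2.15 and 1.5 TPM in wild-type libraries (5.73 ± 0.62, limma adjusted p = 4.75e-05). Rpl26 itself was at 174 to 354 TPM in knockout and 577 to 785 TPM in wild type, with no overlap (-1.21 ± 0.27, limma adjusted p = 0.101). The sums were 483 ± 198 TPM in knockout and 563 ± 88.1 TPM in wild type for the Rpl34 pair, and 542 ± 129 TPM in knockout and 641 ± 83.2 TPM in wild type for the Rpl26 pair.

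The remaining called pseudogenes and unnamed IDs fell outside the rule for named genes and are given because of their calls. Rpl35a-ps2 was at 135.5 to 325 TPM in knockout and 0 to 17.1 TPM in wild type (difference 5.41). Gm10704, a copy of Rtraf, which encodes a protein of a tRNA ligase complex, was at 36.3 to 86.3 TPM in knockout and 0 to 0.45 TPM in wild type (5.72), and Gm8615, a copy of Gnpda1, an enzyme that converts glucosamine phosphate, at 23.6 to 65.9 TPM in knockout and 0 to 0.35 TPM in wild type (5.13). Gm6166, a copy of the fatty acid binding protein gene Fabp5, was at 33.2 to 703 TPM in knockout and 0 to 3.04 TPM in wild type (6.29). Lower in knockout were 5730416F02Rik, which resembles the actin-capping protein gene Capg at 87.7% identity, with 0 to 0.06 TPM in knockout and 57.2 to 78.2 TPM in wild type (-6.06), and Gm15745, a short copy of Rps19, listed at 0 in all 5 knockout libraries and at 35.1 to 73.3 TPM in wild type. Gm12892, a copy of the creatine kinase gene Ckb, was at 0 to 0.17 TPM in knockout and 4.91 to 68.9 TPM in wild type (-4.31), a call kept in 9 of 23 settings. Their parents Rpl35a, Rtraf, Gnpda1, Fabp5, Capg, Rps19 and Ckb were not called, with limma adjusted p of 0.895 to 0.977. The IDs ENSMUSG00000071476 and ENSMUSG00000072548 hold the same value in every library, 0 to 0.37 TPM in knockout and 19.8 to 36.1 TPM in wild type (-4.67).

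**Figure D2:**
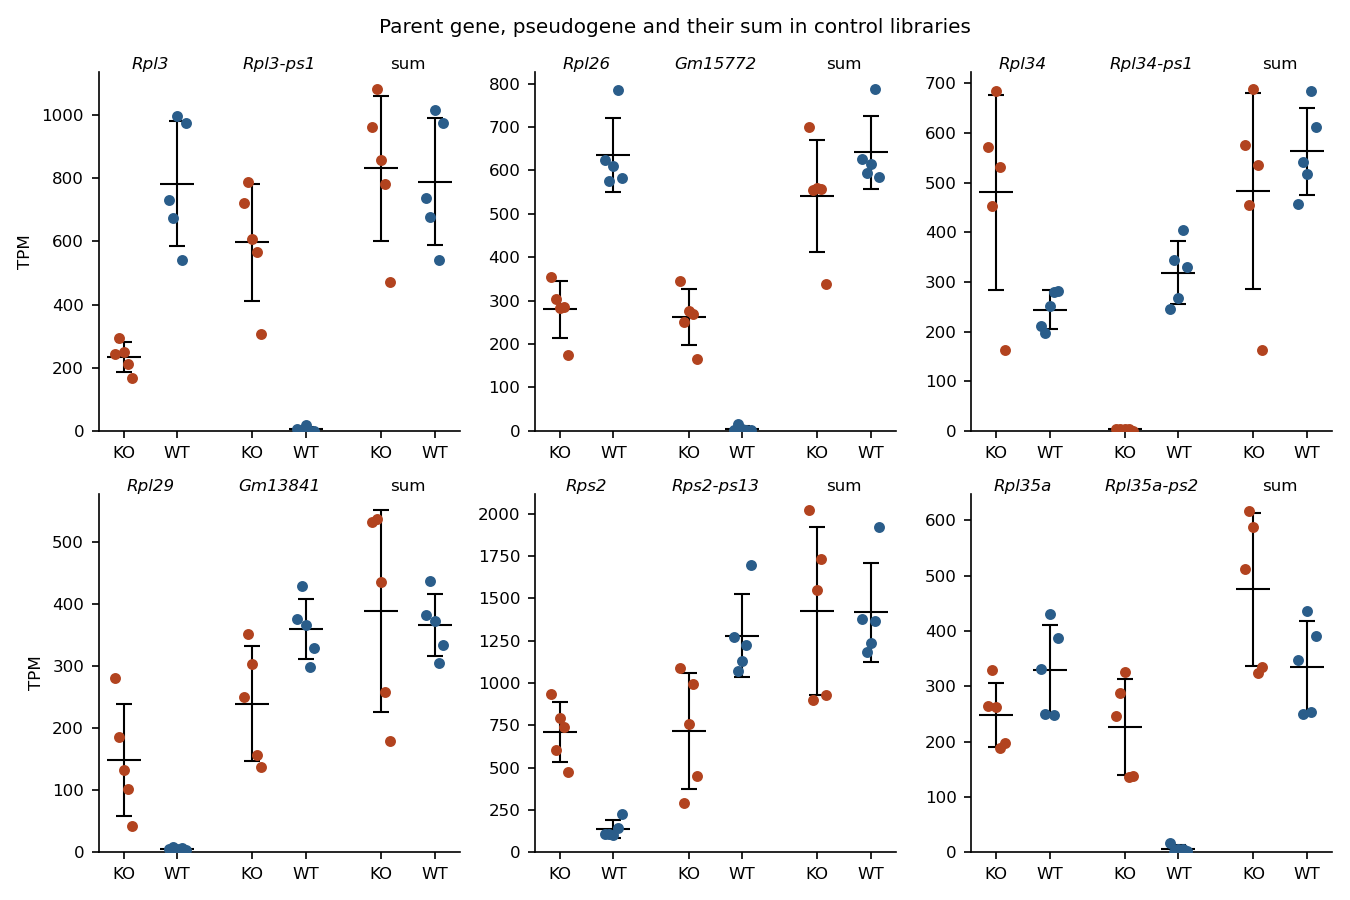
TPM of a parent gene, its pseudogene and their sum in the 5 knockout (KO, red) and 5 wild-type (WT, blue) control libraries, with 1 point per library and the mean ± SD in black. In all 6 pairs the groups are apart for at least 1 of the pair's genes, while the sums of both groups overlap, as for Rpl3 and Rpl3-ps1 at 831 ± 230 TPM in knockout and 789 ± 201 TPM in wild type.

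The same was then measured in all pairs, a comparison chosen after the calls were seen. Of the pseudogenes in the table, 1878 resembled a protein-coding gene at 85% identity or more over at least 80% of their length, and 418 of the resulting pairs had enough TPM to be measured. The pseudogene's share of the pair's sum did not overlap between the genotypes in 43 pairs (10.3%), higher in knockout in 20 and lower in 23. The sum of the pair did not overlap in 12 pairs (2.87%), and in 4 of the 43. Of the 35 parents concerned, 12 encode cytosolic ribosomal proteins, as do 56 of the 308 parents in all pairs. Outside the ribosome, Gm12906, a copy of the mitochondrial import gene Tomm22, held 4.74% to 5.63% of its pair's sum in knockout, against 0.0316% to 0.351% in wild type. Vcp-rs, a copy of the gene of the segregase VCP, held 28.5% to 48.1% in knockout, against 0% to 10.3% in wild type, and Gm11223, a copy of the microtubule regulator gene Stmn1, 37.3% to 45.9% in knockout, against 61.8% to 66.7% in wild type. With TGF-β1, where 3 against 4 libraries come apart by chance more often than 5 against 5, 56 pairs were apart. Of the 43 pairs, 31 were apart there in the same direction. The Rpl3-ps1 share, for one, was 70.9% to 73.1% in knockout and 0% to 1.75% in wild type with TGF-β1.

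When each pseudogene's TPM was added to that of its parent and the fit repeated, 4 genes were called in place of 18, Npy and the unnamed IDs among them. Only 7 of the 18 called genes keep a row of their own after this sum, and 4 of these 7 were kept. Much of the fall was thus fixed in advance by the summing. Npy kept a difference of 8.71 (limma adjusted p = 1.03e-07). The differences of the summed values were 0.06 for Rpl3, -0.11 for Rps2, -0.02 for Rpl29, -0.29 for Rpl26, -0.36 for Rpl34 and 0.53 for Rpl35a, with limma adjusted p of 0.926 or more.

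Counting the called genes, 88 protein-coding genes had no overlap between the genotypes (0.86% of those tested), against 1.06% of all tested genes. A gene unrelated to genotype separates with a probability of at most 0.00794, so this share is near that of unrelated genes. Of the 88 genes, 69 averaged at least 10 TPM in a group and carry a gene name, 48 higher and 21 lower in knockout. A further 2 at that level have clone names. None of those named here passed the test unless stated, so their values are given as values. Tmem175, an ion channel of the lysosome membrane, was at 35.3, 35.4, 41.2, 16.3 and 77.3 TPM in knockout libraries, and at 0, 0, 0, 0.06 and 13.6 TPM in wild-type libraries (difference 4.44 ± 0.93 SE, limma adjusted p = 0.0748). A single wild-type library, replicate 5, held nearly all of the wild-type signal and lay nearest the knockout values. Without it the limma adjusted p was 0.00748, the only alternative setting in which Tmem175 was called. With TGF-β1 the order was the other way round, 14.5, 0 and 6.02 TPM in knockout and 42.2, 46.5, 38.2 and 34.7 TPM in wild type, and the difference between the effects was 7.55 (limma unadjusted p = 4.93e-05, adjusted p = 0.3).

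Ndufaf1, which helps to assemble complex I of the respiratory chain, was at 25.9, 21.9, 54.2, 12.7 and 46.9 TPM in knockout libraries, while among wild-type libraries it was at 0.04 TPM in library 3 and listed at 0 in the others (difference 4.87 ± 1.04 SE, limma adjusted p = 0.0837). It passed in the fit of the control libraries alone (0.0352). With TGF-β1 its groups overlapped, at 25.3 to 66.0 TPM in knockout and 0 to 52.0 TPM in wild type. Atg10, an enzyme of autophagosome formation, was at 17.1 to 35.5 TPM in knockout and 0 to 2.01 TPM in wild type, and Rab4a, a small GTPase of recycling endosomes, at 11.6 to 23.4 TPM in knockout and 0 to 1.67 TPM in wild type (differences 4.17 and 3.98, limma adjusted p = 0.101 and 0.156). The transcription factor gene Tcf12 was at 5.76 to 52.0 TPM in knockout and 0.01 to 1.64 TPM in wild type (3.68, limma adjusted p = 0.206). It lies on chromosome 9 with Smad3, where 9 of 613 tested genes had no overlap (1.47%), against 1.06% of all tested genes. The share was higher on chromosomes 3 (2.15%), 6 (1.9%), 14 (1.56%) and X (1.48%).

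Sh3bgrl3 and Man2b1 were more abundant than the genes just described and differed by less. Sh3bgrl3, a small thioredoxin-like protein, was at 2190, 3271, 2077, 2052 and 2152 TPM in knockout libraries, and at 1417, 1706, 1366, 625 and 1470 TPM in wild-type libraries (difference 0.89 ± 0.23 SE, limma adjusted p = 0.323). Man2b1, a lysosomal enzyme that removes mannose from glycoproteins, was at 154.5, 182, 176, 258 and 228 TPM in knockout libraries, and at 85.1, 36.4, 109, 51.5 and 101 TPM in wild-type libraries (1.46 ± 0.39, limma adjusted p = 0.331). Both had every knockout library above every wild-type library. Rpl21, another gene of the large subunit with a near-identical pseudogene, was at 124 to 256 TPM in knockout and 20.2 to 95 TPM in wild type (2.08), and at 0.10 once its pseudogenes were added.

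Apoe had the largest difference in the other direction among coding genes. It encodes apolipoprotein E, the lipid carrier that macrophages release with cholesterol, and was listed at 0 in knockout libraries 1 to 4 and at 0.14 TPM in library 5, against 40.0, 0.48, 34.2, 2053 and 22.6 TPM in wild-type libraries. All wild-type libraries lay above all knockout libraries, but they spread from below 1 to above 2000 TPM. The difference was -5.29 ± 1.20 (SE, limma adjusted p = 0.109). In limma it was -6.48 without wild-type library 2 (limma adjusted p = 0.00404) and -3.87 without wild-type library 4 (0.0439). With TGF-β1 Apoe was at no more than 0.19 TPM in any of the 7 libraries.

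Other coding genes whose knockout libraries all lay lower were more even. Pgam1, a glycolytic enzyme, was at 574, 675, 658, 648 and 615 TPM in knockout libraries, and at 1068, 753, 1386, 733 and 974 TPM in wild-type libraries (difference -0.59 ± 0.22 SE, limma adjusted p = 0.702). Apobec1, the cytidine deaminase that edits the mRNA of apolipoprotein B, was at 151 to 453 TPM in knockout and 492 to 871 TPM in wild type (-1.08, limma adjusted p = 0.663). Sucla2, a subunit of succinate-CoA ligase in mitochondria, was at 19.2 to 102 TPM in knockout and 102 to 194 TPM in wild type (-1.75, limma adjusted p = 0.595), and with TGF-β1 it was at 81.4 to 121 TPM in knockout and 8.58 to 77.1 TPM in wild type. The motor protein gene Myo5a was at 17.4 to 68.8 TPM in knockout and 77.0 to 147 TPM in wild type (-1.17). Maged1, Dido1 and the prostaglandin receptor gene Ptger1 had differences of -2.36, -3.42 and -2.44. Tmem254b, Zfp943 and Zfp993 also had no overlap. They belong to families of similar genes, and whether reads were split among these was not tested, so their values remain uncertain.

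**Figure D3:**
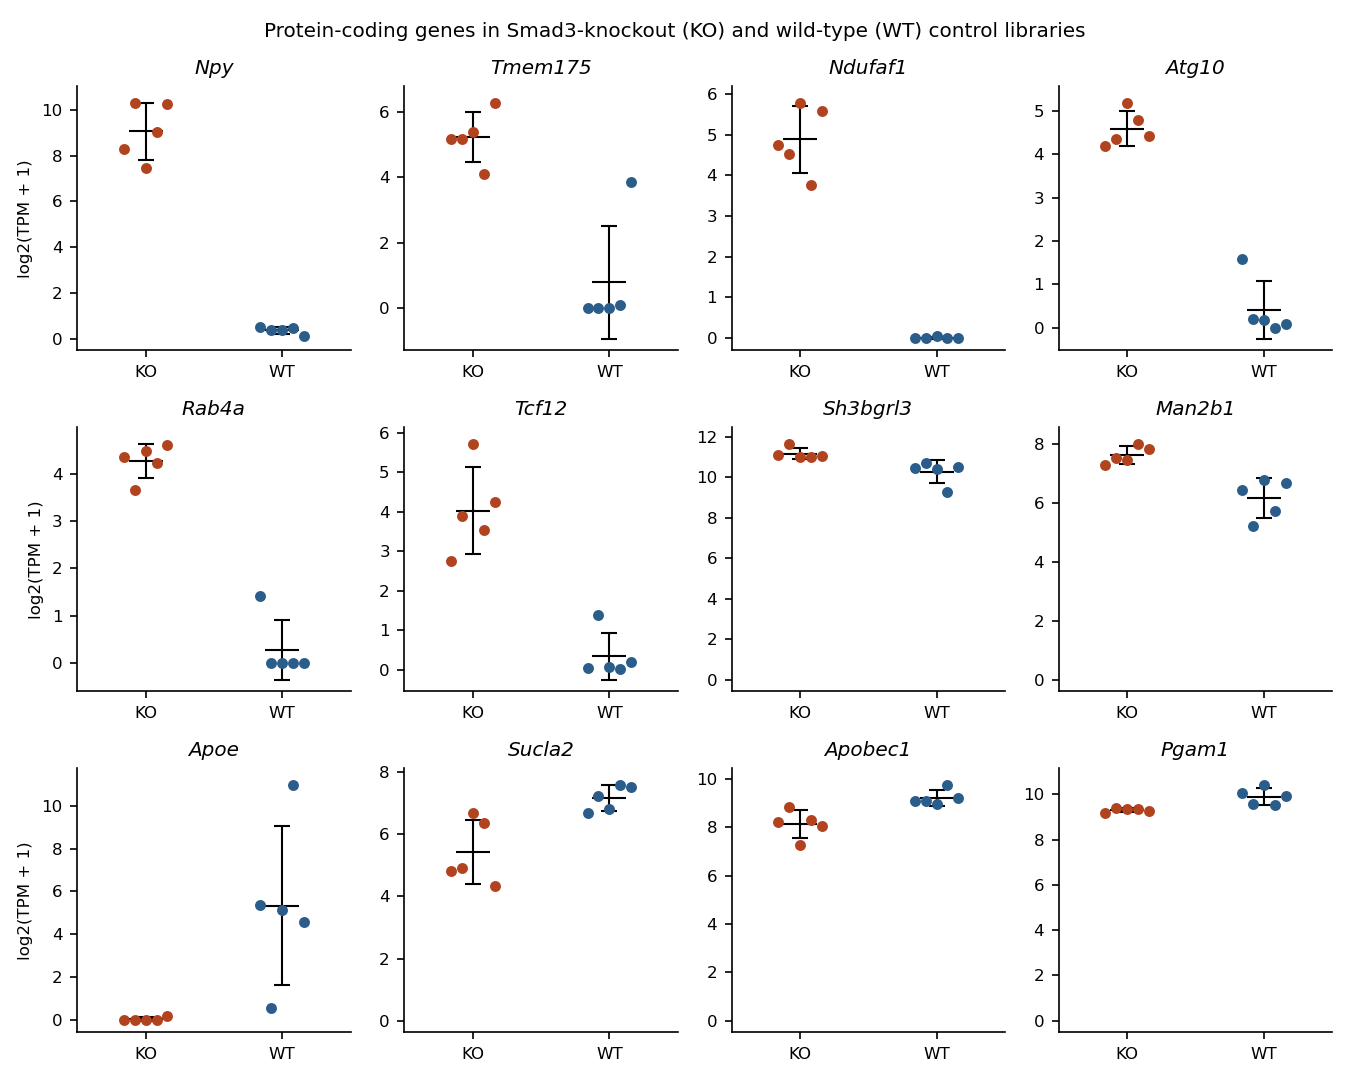
Log2(TPM + 1) of 12 protein-coding genes in the 5 knockout (KO) and 5 wild-type (WT) control libraries, with 1 point per library and mean ± SD. Npy was called; for the other 11 genes the groups do not overlap but the test was not passed, and the wild-type libraries of Apoe spread from 0.48 to 2053 TPM.

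The genes whose control libraries did not overlap were also looked up with TGF-β1, where the genotypes are compared in other libraries. Of the 18 called genes, 17 had the same direction there and 14 were called, which is 77.8% of the control calls and 73.7% of the 19 called with TGF-β1 (0.156% of genes). Gm6166 had a difference of 0.00 there, and Gm10420 and Rpl3 kept their direction without passing, at -2.38 and -1.66 (limma adjusted p = 0.413 and 0.0635). With TGF-β1, 667 genes (5.49%) had no overlap, 35 of them among the 129 without overlap in controls. Of those 129, 92 (71.3%) had the same direction, against 51.6% of all tested genes, and of the 88 coding ones 57 (64.8%). limma called 0 of 12158 genes for a difference between the genotype effects, while 569 (4.68%) had an unadjusted p under 0.05, Tmem175, Gm6166, Rab4a, Atg10, Sucla2 and Apoe among them.

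**Figure D4:**
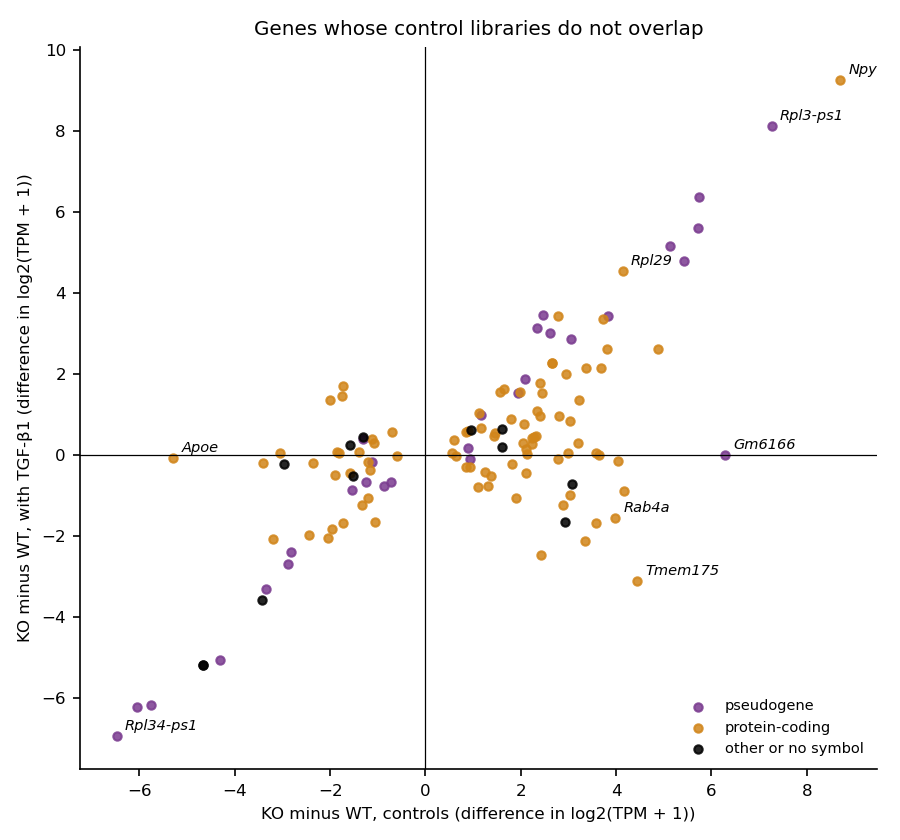
Difference in log2(TPM + 1), knockout minus wild type, with TGF-β1 (vertical axis) against that in controls (horizontal axis), for the 129 genes whose control libraries did not overlap. The 2 comparisons share no library; Npy lies at 8.71 and 9.26, and Tmem175 at 4.44 and -3.11.

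The TGF-β pathway itself was examined by gene lists. Counts of positive differences in a list are to be read against 55.6% of all tested genes. Of 16 tested Smads, ligands and receptors, 8 had a positive difference and none was called, with a median of 0.01. Tgfbr1, the type I receptor, was at 66.7, 34.2, 18.7, 53.6 and 26.3 TPM in knockout libraries and at 10.4, 28.4, 21.1, 38.6 and 25.5 TPM in wild-type libraries. Tgfbr2, the type II receptor that binds the ligand, was at 0.13 to 19.1 TPM in knockout and 0.29 to 11.98 TPM in wild type. Smad2, the other Smad of this branch, was at 1.19 to 48.3 TPM in knockout and 0.06 to 86.3 TPM in wild type, and Smad4, the shared partner, at 0.22 to 4.67 TPM in knockout and 0 to 24.8 TPM in wild type. The inhibitory Smad7 was at 0 to 5.84 TPM in knockout and 0 to 6.10 TPM in wild type, and the ligand gene Tgfb1 at 0.02 to 5.66 TPM in knockout and 0.11 to 15.5 TPM in wild type. Apart from Tgfbr1, these genes had values at or near 0 in single libraries. Such values occurred in both groups, except for Smad2, which was at 1.19 TPM or more in knockout. The groups overlapped for each of these genes. Acvr1, a type I receptor for BMPs and activins, was the single member with an unadjusted p under 0.05, at 9.85 TPM on average in knockout and 0.102 TPM in wild type (difference 2.61, limma adjusted p = 0.753).

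Of 21 tested feedback and target genes of TGF-β, 11 had a positive difference, the median was 0.07, and none reached an unadjusted p of 0.05. Id3 and Id2, inhibitors of helix-loop-helix factors, averaged 402 and 613 TPM in knockout and 364 and 720.2 TPM in wild type. Pmepa1, a feedback inhibitor of the pathway, averaged 2.20 TPM in knockout and 8.70 TPM in wild type (difference -0.62), Tgfbi, a matrix protein named for its induction by TGF-β, 399 TPM in knockout and 899.6 TPM in wild type (-1.41), and Cdkn1a, the cell cycle inhibitor p21, 225 TPM in knockout and 298 TPM in wild type (-0.22). Of 8 tested homeostatic microglia genes, 6 had a positive difference (median 0.49), and none was called. Matrix genes were mostly at 0, and contractile genes in part. In the 10 control libraries 18 of 26 matrix genes, Col1a1 among them, and 7 of 19 contractile genes had a value of 0 throughout. Of the contractile list 5 genes were tested and none was called, with the actin cross-linker gene Flna at 319 TPM on average in knockout and 375 TPM in wild type and the tropomyosin gene Tpm1 at 86.6 TPM in knockout and 98.6 TPM in wild type. Knockout library 1 held 8.12 TPM of the smooth muscle actin gene Acta2, and the other 9 held no more than 0.09 TPM.

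Macrophage gene groups did not separate the genotypes as lists. Among 31 identity genes 19 had a positive difference (median 0.06), and Laptm5, a lysosomal membrane protein, averaged 1824 TPM in knockout and 1187 TPM in wild type (difference 0.68, limma unadjusted p under 0.05, not called). Of 39 tested lysosomal genes 27 were positive (median 0.25, and 0.11 to 0.33 when 1 library was left out), with the proteases Ctsc at 318 TPM in knockout and 143 TPM in wild type and Ctsh at 119 TPM in knockout and 245 TPM in wild type. C5ar1, the receptor of the complement fragment C5a, was at 8.85, 25, 88.3, 48.8 and 237 TPM in knockout libraries and at 665, 46.6, 105, 129 and 686 TPM in wild-type libraries (-2.02, limma adjusted p = 0.817). Fcgr2b, the inhibitory Fc receptor, was at 35.5 to 303 TPM in knockout and 0.08 to 59.9 TPM in wild type (3.84, limma adjusted p = 0.598). The groups overlapped for both. The chemokine gene Ccl4 was at 21.3, 169, 95, 132 and 46.2 TPM in knockout libraries and at 0.26, 15.1, 0.08, 29.7 and 0.08 TPM in wild-type libraries (4.32 ± 1.11 SE, limma adjusted p = 0.284), and differed by -1.70 with TGF-β1, while the chemokine list had 3 of 10 members positive.

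Interferon-stimulated genes had the highest median of the lists with at least 5 tested members, 0.83, with 17 of 24 positive, 2 at an unadjusted p under 0.05 and none called. Ifi35, an interferon-induced protein, was at 91.2, 59.0, 70.5, 63.9 and 87.2 TPM in knockout libraries and at 26.1, 35.8, 56.2, 4 and 7.06 TPM in wild-type libraries, with no overlap (difference 1.99 ± 0.67 SE, limma adjusted p = 0.605). Oas3, a sensor of double-stranded RNA, was at 2.42 to 61.6 TPM in knockout and 0 to 9.51 TPM in wild type (2.91, limma adjusted p = 0.766). Without wild-type library 5 the list's median was 0.15, and without the libraries that list over 10% of moderately expressed genes at 0 it was -0.23. Of such libraries 1 was knockout and 3 were wild type, and their part in the result beyond that value was not tested. MHC class II genes, which present antigen to T cells, had the lowest median, -0.69 over 6 genes, with the highest mean level in wild-type library 3. The median was 0.00 without that library. Integrated stress response genes had 15 of 24 positive (median 0.33, and -0.04 at the lowest when 1 library was left out), with the phosphatase regulator gene Ppp1r15a at 52.2 TPM in knockout and 27.4 TPM in wild type and the chaperone gene Dnajb9 at 54.5 TPM in knockout and 14.6 TPM in wild type.

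Genes of the cell cycle varied between libraries of the same genotype more than between genotypes. The mean log2(TPM + 1) of 34 mitosis and G2/M genes was 7.77, 4.72, 3.79, 3.68 and 4.85 in knockout libraries and 2.13, 6.88, 1.40, 6.46 and 7.07 in wild-type libraries. In S phase genes 24 of 35 had a negative difference (median -0.35, and -0.70 without knockout library 4 to -0.07 without knockout library 2 or 5, and -0.77 with the covariate for detected genes), with the replication helicase gene Mcm6 and the clamp loader gene Rfc5 at an unadjusted p under 0.05. Entering the mean of both lists as a covariate left 18 calls. Mitochondrially encoded genes were negative in 12 of 13 (median -0.22, and -0.40 to -0.06 over the alternatives run), none called, with mt-Co2, a subunit of cytochrome c oxidase, at 1318 TPM in knockout and 2064 TPM in wild type (-0.56, limma adjusted p = 0.817). Ribosomal protein genes had 42 of 78 positive and a median of 0.03; 4 were higher and 3 lower at an unadjusted p under 0.05, and Rpl29, Rps2, Rpl3, Rpl21, Rpl26, Rpl34 and Rpl30 are all members of pairs whose pseudogene share differed between the genotypes.

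**Figure D5:**
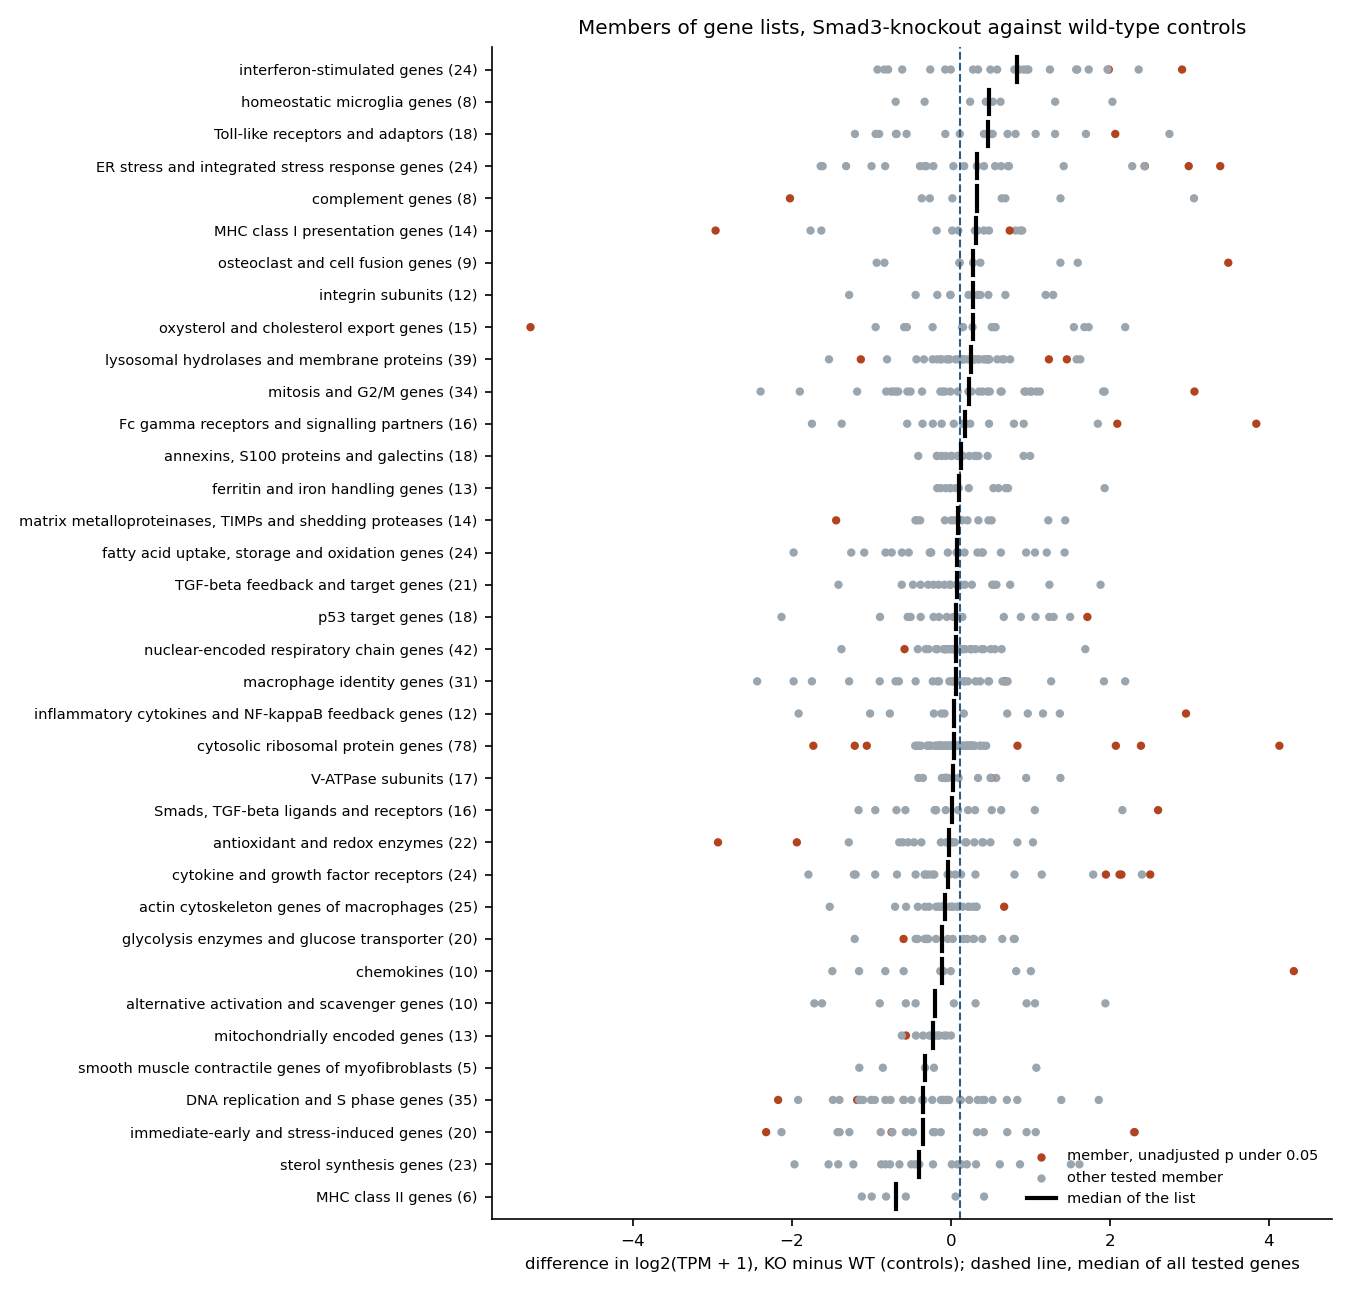
Differences in log2(TPM + 1), knockout minus wild-type controls, for the tested members of 36 gene lists with at least 5 tested members, with the number tested in parentheses, 1 point per gene, red where the unadjusted limma p was under 0.05, and a black bar at the list's median. The dashed line marks the median of all tested genes, 0.11; interferon-stimulated genes have the highest median, 0.83, and MHC class II genes the lowest, -0.69.

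Markers of other cells were present in part in both groups. The summed TPM of 12 fibroblast and stromal markers was 0.01 to 251 in knockout and 0 to 0.14 in wild type, but 99.3% of it came from Pdpn, podoplanin, which macrophages also express, while Col1a1, Col3a1, Dcn, Lum, Pdgfra and Postn were listed at 0 in all 10 libraries. Pdpn was at 8.35, 0, 2.28, 26.6 and 249 TPM in knockout libraries and at no more than 0.12 TPM in wild-type libraries (difference 3.50, limma adjusted p = 0.435). Summed markers of progenitors and monocytes were at 5.21 to 149 TPM in knockout and 0.1 to 34.4 TPM in wild type, mostly from Cd34 (56.8%), with Gata2, Myb, Ly6c2 and Plac8 at 0 in all 10. Only 3 of the 12 progenitor and monocyte markers passed the TPM filter, Cd34, Meis1 and Ccr2, and all 3 differences were positive. Their mean log2(TPM + 1) was 0.92 to 3.26 in knockout and 0.05 to 0.67 in wild type, with no overlap. Meis1 and Cd34, the latter at 0.11 TPM on average in wild type, reached TPM 1 in no wild-type control library. Both passed the filter without those libraries, so this separation may follow from the filter, and no conclusion is drawn from it. Cd34 averaged 29.2 ± 65.3 TPM (SD) in knockout. The sums over all 12 overlapped, and the 34.4 TPM of wild-type library 3 came mostly from markers not tested. Meis1, a transcription factor of haematopoietic progenitors, was at 2.81, 16.99, 13.85, 6.25 and 0.05 TPM in knockout libraries and at 0.16, 0.05, 0.39, 0 and 0.02 TPM in wild-type libraries (difference 2.43 ± 0.97 SE, limma unadjusted p = 0.0212, adjusted p = 0.757). The part of such cells in the other results was not tested. Lymphocyte markers summed to at most 0.6 TPM in knockout and 2.09 TPM in wild type, and mast cell markers to at most 11 TPM in knockout and 0.06 TPM in wild type. Endothelial markers summed to 34.3 to 51.8 TPM in knockout and 20.1 to 66.7 TPM in wild type with Pecam1 and Cdh5 at 0, and neutrophil markers to 1.15 to 209 TPM in knockout and 1.90 to 134 TPM in wild type with Ly6g, Elane and Mpo at 0. Dendritic cell markers summed to 103 to 324 TPM in knockout and 40.0 to 134 TPM in wild type, 99.8% of it the interferon-induced Bst2, and erythroid and megakaryocyte markers to 80.3 to 440 TPM in knockout and 128 to 279 TPM in wild type, all of it Pf4, with the globin genes at 0. If a library holds many cells, a larger number of cells of a type and more RNA per cell cannot be told apart.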

How the data were processed

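The authors deposited 1 table of TPM values per gene for all 17 libraries, made with RSEM after FastQC and Trim Galore on mm9, per the submitters' processing notes, which give no versions. Libraries followed the SMART-seq2 protocol, per the labels' protocols. TPM keeps no read depth, so precision comes from the libraries' spread alone. Genes with TPM 1 or more in at least 3 libraries were kept, 12158 in all, and log2(TPM + 1) was fitted with limma 3.58.1 (R 4.3.3, 4 groups, trended empirical Bayes). Single values were tested by two-sided exact permutation over 252 splits, and the limma fit was tested on simulated data. Gene names and sequences came from GENCODE vM21, and pseudogenes were paired with parents by blastn 2.17.0 at 85% identity. Named genes were up to 12 called protein-coding genes per direction and up to 12 without overlap at 10 TPM or more in a group, by p, 4 members per list with the largest differences, and 12 fixed genes; any others were named after their values were seen. Some genes are not reported here. The groups, rules and lists were chosen with earlier results of these data known. Same-numbered libraries did not deviate together (correlations -0.08 to -0.0026), so numbers were not used as pairs. Alternatives covered the added constant, filters, scaling, covariates, replicate block, left-out libraries and pseudogene sums.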

Additional observations from a re-analysis of the deposited data

Results flagged for a closer look

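In each group of 5 control libraries, the highest and lowest library were set against the rest by Dixon's ratio, with a limit of 0.71. Of 192 groups of values examined 23 were past it, where chance flags about 1 in 20 groups. All values here are log2(TPM + 1) of the library that stood apart, and no explanation was tested.

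Among knockout libraries the one that stood apart was the highest for Acta2 (3.19), Smad3 (1.55) and Sh3bgrl3 (11.68), and the lowest for Smad2 (1.13), Myo5a (4.20), Rpl34 (7.35), Rpl34-ps1 (0.34) and Rps19 (9.45). Among wild-type libraries it was the highest for Tmem175 (3.87), Atg10 (1.59), Rab4a (1.42), Tcf12 (1.40), Rpl26 (9.62), Smad7 (2.83) and Tgfb1 (4.05), and the lowest for Cd68 (10.49), Sh3bgrl3 (9.29) and Tgfbr2 (0.37). For Tmem175, Atg10, Rab4a and Tcf12 this library was the 1 wild-type library above the near-zero level of the others.

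For gene lists, the mean over members stood apart in the highest knockout library for G2/M genes (7.77), and in the lowest for homeostatic microglia genes (2.00) and cholesterol synthesis genes (2.55). In wild type it stood apart in the highest library for macrophage identity genes (8.13) and for neutrophil markers (2.99).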

How the results depend on the processing

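Of the 18 calls, Npy, Gm15772, Rpl34-ps1 and Rpl3-ps1 were kept in every setting in which they were tested. The count fell to 4 with a replicate block in the control libraries alone, although the numbers do not pair the libraries, and was 16 with the replicate block over all 17. It was 5 among protein-coding genes alone, where fewer genes were tested, and 6 without the libraries that list over 10% of moderately expressed genes at 0, where fewer libraries remained. It was 4 with pseudogenes summed at 85% identity and 5 at 95%, where only 7 and 8 of the 18 calls still had a row to test. Both sums were chosen after seeing the data. Summing at 85% identity turned Rpl3 to 0.062, Rps2 to -0.11 and Rpl29 to -0.016, and summing at 95% turned them to 0.062, -0.10 and -0.024, since by construction the pseudogene's TPM then counts for the parent. Without the sparse libraries 5 calls were higher and 1 lower, against 10 and 8.

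Leaving out 1 library gave 16 to 23 calls, and the other settings also 16 to 23. The Smad3 difference was then -1.55 to -0.54, that in genes at TPM 1 or more 493 to 1053, in moderate genes at 0 -4.18 to -1.72 percentage points (exact permutation p = 0.0397 without knockout replicate 2), and in TPM of mitochondrially encoded genes -1.04 to -0.20. It was 0.0124 to 0.49 for ribosomal protein genes and -1.58 to 0.90 for the 10 most abundant genes, a sign change without knockout replicate 1 (0.90) or 2 (0.031) or wild-type replicate 5 (0.055); the cause was not tested. Read depth is unknown, so values near 0 TPM carry no limit of their own.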
